A study of Homo sapiens with 4 samples.

Results

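Amino acid transporter genes were followed in HFL1 cells, a human lung fibroblast line per the labels, labelled as lacking calumenin, the product of CALU, which binds calcium in the endoplasmic reticulum and Golgi. The transporters were the protein-coding genes named in the SLC1, SLC3, SLC6, SLC7, SLC36, SLC38 and SLC43 families. These 7 families gave 59 genes of the 58735 in the deposited table. RNA sequencing covered 4 libraries, 2 labelled KO and 2 labelled WT, with no other treatment, time or genotype named for either group. The labels do not say whether the KO cells were a single clone or a pool. Nor do they say that the libraries are separate cultures, and the p-values below reflect library-to-library spread alone, possibly only technical spread.

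Cells take up amino acids through carriers that differ in substrate and driving force. Some use sodium to concentrate amino acids, neutral ones for several SLC38 carriers and glutamate for most SLC1 carriers. Some exchange one amino acid for another (most SLC7 light chains, which need the SLC3 heavy chains to reach the membrane). Others work on the lysosome (several SLC36 and SLC38 carriers). The SLC6 family also moves neurotransmitters, betaine, taurine and creatine, so not every gene counted here carries a protein-building amino acid. When amino acids run short or the endoplasmic reticulum is stressed, the transcription factor ATF4 raises many of these carriers together with enzymes that make amino acids.

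The KO libraries held 17699349 and 16622382 recovered reads, and the WT libraries 17715774 and 16173899. CALU itself stood at 6.59 and 5.95 FPKM in the KO libraries, against 87.7 and 81.8 FPKM in the WT libraries (log2 change -3.56, SE 0.14, limma adjusted p = 0.00154). Here FPKM is fragments scaled to gene length in kilobases and by a factor for each library. The label as fibroblasts was mostly not borne out. Of 13 fibroblast markers, 8 stayed below 1 FPKM in every library. COL1A2 and POSTN had 0 reads, and DCN and FAP had 1 read each over all libraries. The summed level of the 13 markers was 567 and 820.1 FPKM in KO and 1023 and 1412 FPKM in WT, most of it S100A4. Of 5 fibroblast markers tested, 1 was higher in KO (COL1A1, at 3.04 and 3.16 FPKM in KO and 0.234 and 0.28 FPKM in WT) and 1 was lower (TWIST2). COL1A1 was tested only because both KO libraries reached 1 FPKM. Both KO libraries lay above both WT libraries for COL1A1, VIM and THY1 and below them for S100A4 and TWIST2, and the median change of the 5 was 0.33 on the log2(FPKM + 1) scale. Of 6 epithelial markers tested, 4 were higher in KO and 1, CLDN4, was lower. CLDN4 was tested only because both WT libraries reached 1 FPKM. The summed level of the epithelial markers, mostly KRT8 and KRT18, was 1529.8 and 1759.7 FPKM in KO and 706 and 813 FPKM in WT. All 5 proliferation markers, MKI67 among them, were higher in KO, with summed levels of 282 and 258 FPKM in KO and 19.5 and 37.2 FPKM in WT. All 5 endothelial markers stayed below 1 FPKM, as did 4 of 5 leukocyte markers, the exception being CD14. The part of these markers and of cell division in the transporter results was not tested, and in bulk RNA fewer cells of a type cannot be told apart from less RNA per cell.

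Transporter genes that differed were lower in KO. Of the 59, 26 reached 1 FPKM in at least 2 libraries and were tested, and 10 of these fell in KO (limma, Benjamini-Hochberg adjusted p under 0.05 over all 14100 genes tested), 38.5% of those tested, beside 11.1% of all genes tested. By limma 0 rose, beside 12.1% of all genes tested. At an unadjusted p under 0.05, 14 were lower and 1 was higher. The median change of the 26 was -0.44 on the log2(FPKM + 1) scale, beside 0.03 over all genes tested. Both KO libraries lay below both WT libraries for 18 of the 26, beside 31.3% of all genes tested, and above them for 3, beside 34.4%. SLC6A12 passed the filter only because both WT libraries reached 1 FPKM. SLC6A15 reached 1 FPKM in KO replicate 1 but not in KO replicate 2, so it too needed a WT library to pass. The count of 10 was 5 without WT replicate 1 and 3 with no filter on low values (SLC6A12, SLC6A15 and SLC6A9).

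**Figure D1:**
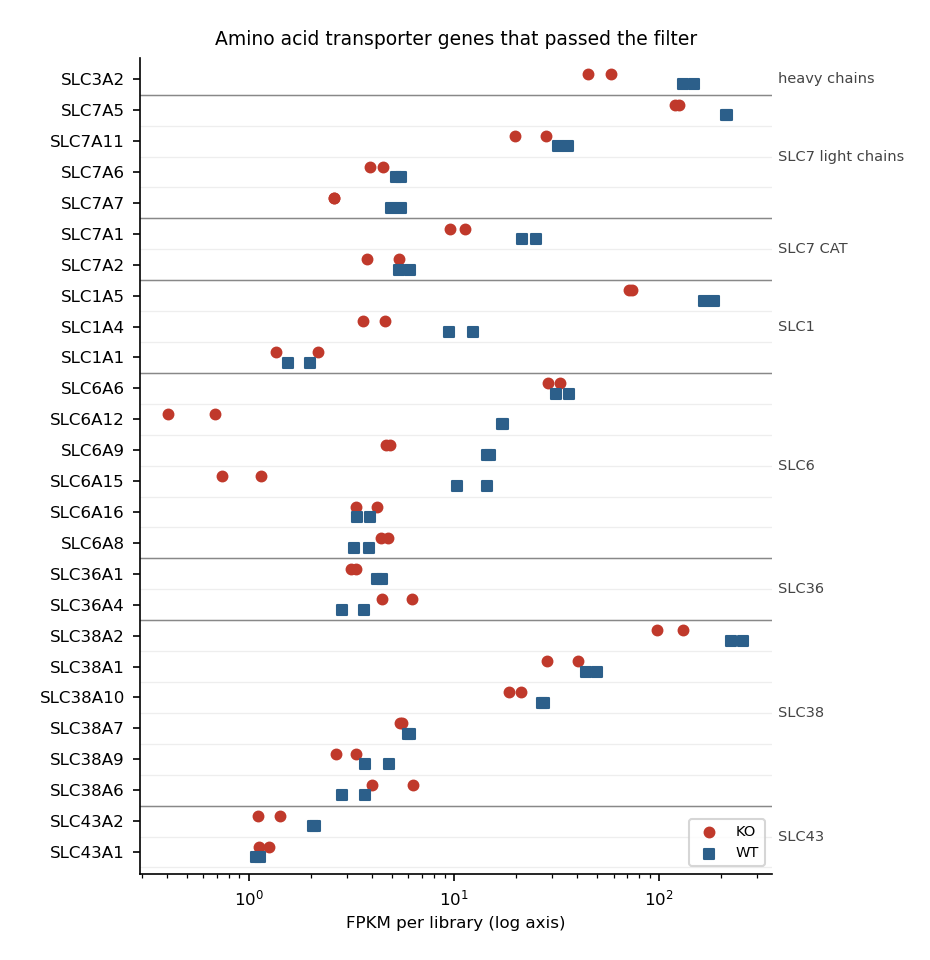
FPKM per library on a log axis for the 26 tested transporter genes, grouped by family, with KO libraries as red circles above WT libraries as blue squares. The circles and squares of SLC6A12 and SLC6A15 lie farthest apart, at 0.405 to 1.14 FPKM in KO and 10.3 to 17.4 FPKM in WT.

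**Figure D2:**
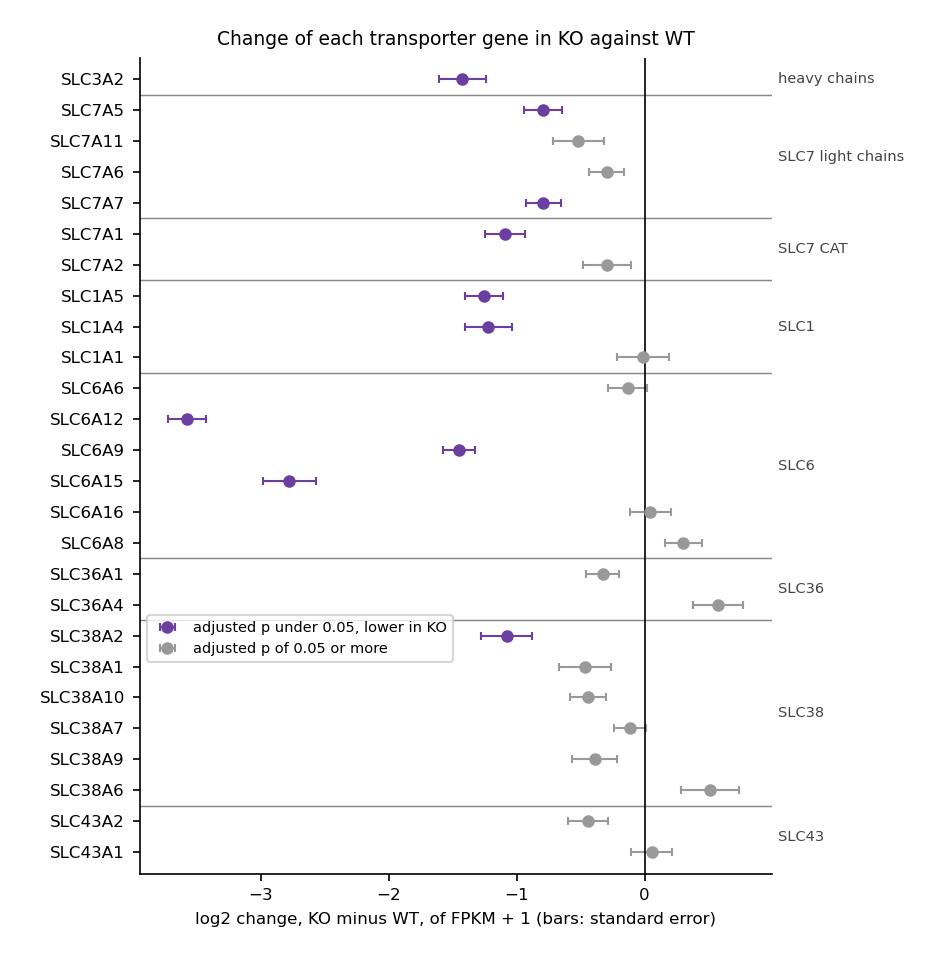
Log2 change of FPKM + 1, KO minus WT, with its standard error from limma for the same 26 genes. The 10 purple points passed the adjusted threshold and run from -0.79 (SLC7A7) to -3.57 (SLC6A12), and the 16 grey points did not pass it.

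The summed level of all 59 genes was 557 and 521 FPKM in the KO libraries, against 1089 and 999 FPKM in the WT libraries, 1.94-fold lower in KO. As a share of recovered reads the same genes took 0.342% and 0.308% in KO, against 0.656% and 0.59% in WT. Most of the sum came from 4 genes, SLC38A2, SLC7A5, SLC1A5 and SLC3A2, which together made up 66.03% and 68.3% of it in KO and 73.8% and 73.5% in WT. All 4 of these abundant genes were among those that fell.

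**Figure D3:**
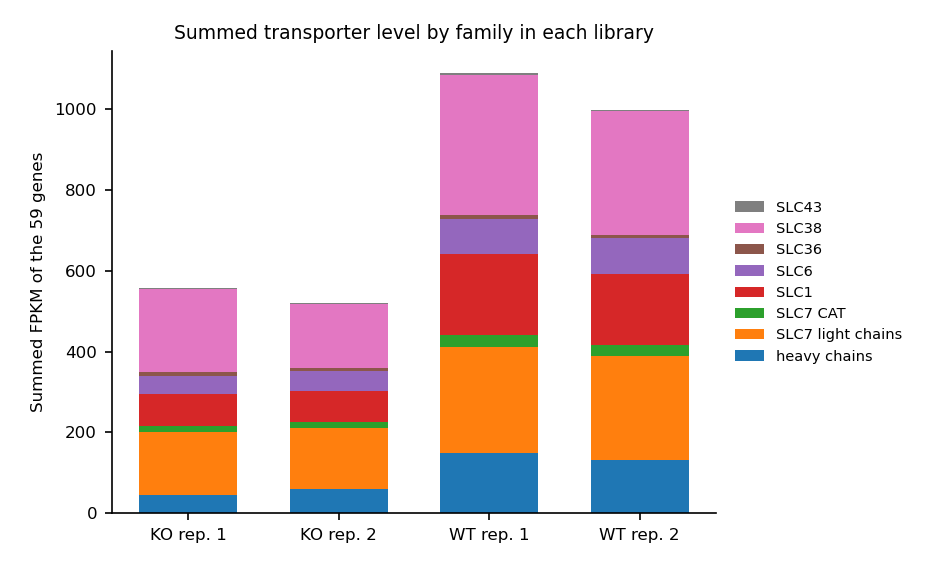
Summed FPKM of the 59 transporter genes in each library, stacked by family, with both KO libraries left of both WT libraries. The KO bars end at 557 and 521 FPKM and the WT bars at 1089 and 999 FPKM.

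Promoter sequence is shown for members that fell and that hold the letters of the C/EBP-ATF response element (CARE), the site at which ATF4 is known to act with C/EBP partners. RefSeq windows of 300 bases, 250 before and 50 after an annotated start (GRCh38.p14), were matched by symbol for 44 of the 59 genes in 66 windows, including 8 of the 10 that fell, and not for SLC6A12 or SLC6A15. The letters TGATGNAA were searched on both strands. They occurred in 4 of 15 windows of the genes that fell (4 of 8 genes). They also occurred in 1 of 22 windows of tested genes that did not pass (SLC38A1) and in 1 of 29 windows of untested genes (SLC1A3). Over all protein-coding genes they occurred in 598 of 22199 windows, or 2.69%, and in 571 of 15843 genes, or 3.6%. In the 4 windows below, each written 5′ to 3′ on the gene's strand, capitals mark the match.
SLC1A5, chr19:46784765-46785064, minus strand: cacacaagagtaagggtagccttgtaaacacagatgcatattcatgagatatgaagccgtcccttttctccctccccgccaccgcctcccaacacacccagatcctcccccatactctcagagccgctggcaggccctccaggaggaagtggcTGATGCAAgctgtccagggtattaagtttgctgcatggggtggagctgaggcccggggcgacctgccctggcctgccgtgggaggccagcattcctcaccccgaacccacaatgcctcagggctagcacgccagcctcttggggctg
SLC3A2, chr11:62881449-62881748, plus strand: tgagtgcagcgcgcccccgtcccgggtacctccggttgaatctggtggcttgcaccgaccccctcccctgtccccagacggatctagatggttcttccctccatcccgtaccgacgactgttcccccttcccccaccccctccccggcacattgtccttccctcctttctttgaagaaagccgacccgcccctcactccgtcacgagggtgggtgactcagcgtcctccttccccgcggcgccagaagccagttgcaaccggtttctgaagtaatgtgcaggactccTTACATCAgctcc
SLC7A1, chr13:29595639-29595938, minus strand: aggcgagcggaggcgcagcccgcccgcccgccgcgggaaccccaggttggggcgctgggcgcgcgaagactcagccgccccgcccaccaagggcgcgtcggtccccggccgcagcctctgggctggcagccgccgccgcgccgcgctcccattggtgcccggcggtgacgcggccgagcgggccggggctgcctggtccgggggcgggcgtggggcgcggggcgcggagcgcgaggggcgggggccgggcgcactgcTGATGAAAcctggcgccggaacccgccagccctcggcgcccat
SLC1A4, chr2:64989149-64989448, plus strand: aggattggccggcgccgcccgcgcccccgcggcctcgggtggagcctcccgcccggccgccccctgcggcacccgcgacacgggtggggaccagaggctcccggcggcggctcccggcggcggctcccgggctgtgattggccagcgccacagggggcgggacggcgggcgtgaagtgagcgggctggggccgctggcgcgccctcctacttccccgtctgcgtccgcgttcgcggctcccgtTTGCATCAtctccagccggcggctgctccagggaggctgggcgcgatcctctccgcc

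Counted from the start as base 1, the match spanned -97 to -90 in SLC1A5, 38 to 45 in SLC3A2 on the opposite strand, 8 to 15 in SLC7A1, and -7 to 1 in SLC1A4 on the opposite strand. SLC1A5 and SLC3A2 have 3 RefSeq windows each and SLC1A4 has 2, and the match lay in a single window of each, while SLC7A1 has 1 window. A match describes letters only and is not evidence of binding. The antioxidant response element core, TGACNNNGC, was found in 5 of the 15 windows of genes that fell (SLC7A5, SLC1A5, SLC3A2, SLC7A1 and SLC7A7) and in 13.8% of all windows. It was also found in 1 of 22 windows of tested genes that did not pass and in 1 of 29 windows of untested genes. The E-box CACGTG was found in 3 of the 15 (SLC7A5, SLC1A5 and SLC7A7) and in 8.34% of all windows. It also lay in 4 of 22 windows of tested genes that did not pass and in 3 of 29 windows of untested genes. Matches of these motifs did not overlap each other in members' windows.

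The heavy chain SLC3A2 (CD98 heavy chain), which carries several SLC7 exchangers to the cell surface, was lower in KO. It stood at 45.1 and 58.3 FPKM in KO, against 147.6 and 131.6 FPKM in WT. The groups did not overlap, and the means were 51.7 ± 9.34 FPKM in KO and 139.6 ± 11.3 FPKM in WT (SD, n = 2 each), 2.7-fold lower (log2 -1.42, SE 0.18, limma adjusted p = 0.00763). The gene (ENSG00000168003) lies on the plus strand of chromosome 11 from 62856102 to 62888875 on GRCh38. The other heavy chain, SLC3A1, had 7 reads in all, 6 of them in KO.

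Among light chains that pair with SLC3A2, SLC7A5 (LAT1, an exchanger of large neutral amino acids such as leucine) was the most abundant. SLC7A5 stood at 120.03 and 125.2 FPKM in KO and at 214 and 213 FPKM in WT. Replicates lay close together and the groups were well apart, 1.74-fold lower in KO (log2 -0.80, SE 0.15, limma adjusted p = 0.0193). This call was lost without KO replicate 1 (adjusted p = 0.0591), WT replicate 1 (adjusted p = 0.143) or WT replicate 2 (adjusted p = 0.123), within a range of 0.00387 to 0.143 over 11 alternatives. Its pseudogene copy SLC7A5P1 had 10 and 28 reads in KO and 13 and 9 in WT, against 9975 and 9731 SLC7A5 reads in KO and 18562 and 16531 in WT, and how counting split reads between these copies is uncertain.

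SLC7A7 (y+LAT1, which exchanges cationic for neutral amino acids) stood at 2.59 and 2.6 FPKM in KO and at 4.94 and 5.52 FPKM in WT. It was 2.01-fold lower in KO with no overlap (log2 -0.79, SE 0.13, limma adjusted p = 0.0148), a call lost without WT replicate 1 (adjusted p = 0.0815) or WT replicate 2 (adjusted p = 0.112), over alternatives from 0.00461 to 0.112. Its relative SLC7A6 (y+LAT2) had 3.89 and 4.5 FPKM in KO and 5.51 and 5.23 FPKM in WT, a difference that did not pass (limma adjusted p = 0.173). SLC7A11 (xCT, which imports cystine in exchange for glutamate and feeds glutathione synthesis) had 27.96 and 19.7 FPKM in KO and 36.2 and 32.1 FPKM in WT. Both KO libraries lay below both WT libraries, but the difference did not pass (log2 -0.52, SE 0.20, limma adjusted p = 0.119), except without KO replicate 1 (adjusted p = 0.0425) and with a replicate block.

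The 6 light chain genes known to pair with SLC3A2 (SLC7A5, SLC7A6, SLC7A7, SLC7A8, SLC7A10 and SLC7A11) summed to 154.7 and 152.2 FPKM in KO and 262 and 256 FPKM in WT, 1.69-fold lower. SLC3A2 FPKM per light chain FPKM was 0.292 and 0.383 in KO, against 0.564 and 0.513 in WT, with no overlap. SLC7A5 made up 77.6% and 82.2% of the light chain sum in KO and 81.8% and 82.9% in WT. With 2 libraries a group, an exact two-sided permutation test cannot give a p below 0.333, and these ratios are given as a description with no test.

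SLC7A1 (CAT1), the main sodium-independent carrier of arginine and lysine in many cells, stood at 11.3 and 9.55 FPKM in KO and at 25.2 and 21.4 FPKM in WT. It was 2.24-fold lower in KO, with no overlap (log2 -1.09, SE 0.16, limma adjusted p = 0.0103), although not past the threshold without WT replicate 1 (adjusted p = 0.0699, over alternatives from 0.00102 to 0.0699). SLC7A2 (CAT2), a second cationic carrier, had 5.4 and 3.75 FPKM in KO and 6.13 and 5.39 FPKM in WT. Its groups overlapped (limma adjusted p = 0.299).

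Both neutral exchangers of the SLC1 family fell. SLC1A5 (ASCT2), a glutamine exchanger, stood at 71.7 and 74.2 FPKM in KO and at 185 and 166 FPKM in WT. Neither KO library came near a WT library, and SLC1A5 was 2.41-fold lower (log2 -1.26, SE 0.15, limma adjusted p = 0.0065). SLC1A4 (ASCT1), which carries serine and alanine, stood at 4.62 and 3.6 FPKM in KO and at 12.4 and 9.51 FPKM in WT. SLC1A4 was 2.66-fold lower without overlap (log2 -1.22, SE 0.18, limma adjusted p = 0.0115), a call lost without WT replicate 1 (adjusted p = 0.0605, over alternatives from 0.000817 to 0.0656). The glutamate carrier SLC1A1 (EAAT3) had 2.17 and 1.36 FPKM in KO and 1.99 and 1.56 FPKM in WT, with overlapping groups (limma adjusted p = 0.966).

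The SLC6 family held the largest falls among tested transporters. SLC6A12 (BGT1, a carrier of betaine and GABA) stood at 0.681 and 0.405 FPKM in KO, from 63 and 35 reads, and at 17.4 and 17.2 FPKM in WT, from 1675 and 1487 reads. The WT libraries were nearly equal and both KO libraries lay far below them, 31.8-fold lower (log2 -3.57, SE 0.15, limma adjusted p = 0.00154). Its neighbour SLC6A13 (GAT2), 6050 bases away on chromosome 12, was low in every library, at 0.0538 and 0.101 FPKM in KO and 0.465 and 0.848 FPKM in WT.

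SLC6A15, a carrier of branched-chain amino acids and proline best known from brain, stood at 1.14 and 0.744 FPKM in KO and at 14.4 and 10.3 FPKM in WT. The groups were far apart, 13.1-fold lower in KO (log2 -2.77, SE 0.20, limma adjusted p = 0.00319). SLC6A9 (GlyT1), a glycine carrier, stood at 4.88 and 4.68 FPKM in KO and at 14.6 and 15.03 FPKM in WT. It was 3.09-fold lower with tight replicates (log2 -1.45, SE 0.13, limma adjusted p = 0.0039). SLC6A12, SLC6A15 and SLC6A9 kept their calls under every alternative that tested them. The filter of 1 FPKM in all 4 libraries left out SLC6A12 and SLC6A15, so it could not test them. Fits with a library left out kept the genes chosen on all 4 libraries. Without a WT library SLC6A12 would otherwise have missed the filter.

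Other SLC6 members did not pass. The taurine carrier SLC6A6 was the most abundant of the family in every library, at 28.9 and 32.8 FPKM in KO and 31.4 and 36.4 FPKM in WT, with overlapping groups (log2 -0.13, SE 0.15, limma adjusted p = 0.575). The creatine carrier SLC6A8 had 4.4 and 4.77 FPKM in KO and 3.84 and 3.24 FPKM in WT, higher in both KO libraries (log2 0.30, SE 0.14, limma adjusted p = 0.179). SLC6A16, whose substrate is not settled, had 4.24 and 3.34 FPKM in KO and 3.9 and 3.36 FPKM in WT (limma adjusted p = 0.86).

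In the SLC38 family the most abundant transporter gene of all in WT, SLC38A2 (SNAT2), fell. SNAT2 concentrates small neutral amino acids with sodium and is known to rise when amino acids are scarce. SLC38A2 stood at 130.6 and 97.9 FPKM in KO and at 257 and 224 FPKM in WT. The KO libraries differed from each other but both lay below WT, 2.11-fold lower (log2 -1.08, SE 0.20, limma adjusted p = 0.0192), a call lost without WT replicate 1 (adjusted p = 0.115) or WT replicate 2 (adjusted p = 0.0624), over alternatives from 0.00169 to 0.115. The gene (ENSG00000134294) lies on the minus strand of chromosome 12 from 46358189 to 46372867 on GRCh38.

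SLC38A1 (SNAT1), 88171 bases from SLC38A2, had 40.04 and 28.4 FPKM in KO and 50.02 and 44.1 FPKM in WT. Both KO libraries were lower, but the difference did not pass (log2 -0.47, SE 0.20, limma adjusted p = 0.153). SLC38A2 FPKM per SLC38A1 FPKM was 3.26 and 3.45 in KO, against 5.14 and 5.08 in WT. SLC38A10 had 18.5 and 21.1 FPKM in KO and 27.002 and 27.4 FPKM in WT, lower in both KO libraries but short of the threshold (log2 -0.44, SE 0.14, limma adjusted p = 0.0732).

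The remaining SLC38 members did not pass. SLC38A9, a lysosomal arginine sensor for the growth kinase complex mTORC1, had 3.34 and 2.65 FPKM in KO and 4.8 and 3.69 FPKM in WT (limma adjusted p = 0.163). SLC38A7, a lysosomal glutamine exporter, had 5.55 and 5.43 FPKM in KO and 5.99 and 6.1 FPKM in WT (limma adjusted p = 0.537). SLC38A6 was among the 3 genes with both KO libraries above both WT libraries, at 6.33 and 3.97 FPKM in KO and 3.69 and 2.83 FPKM in WT (log2 0.51, SE 0.23, limma adjusted p = 0.163). TRMT5, which overlaps SLC38A6 on the other strand, had 6.91 and 5.24 FPKM in KO and 4.65 and 4.03 FPKM in WT, and whether counting used strand is not given in the sources used here.

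The tested SLC36 pair gave differences of opposite sign, neither past the threshold. SLC36A4 (PAT4) had 6.27 and 4.45 FPKM in KO and 3.63 and 2.85 FPKM in WT, higher in both KO libraries and not past the threshold (log2 0.57, SE 0.19, limma adjusted p = 0.087). SLC36A1 (PAT1), found on lysosomes, had 3.33 and 3.15 FPKM in KO and 4.45 and 4.2 FPKM in WT, lower in both KO libraries (limma adjusted p = 0.127). Of the SLC43 carriers of large neutral amino acids, SLC43A2 (LAT4) had 1.11 and 1.42 FPKM in KO and 2.05 and 2.09 FPKM in WT (limma adjusted p = 0.0986). SLC43A1 (LAT3) had 1.26 and 1.12 FPKM in KO and 1.13 and 1.09 FPKM in WT, with overlapping groups (limma adjusted p = 0.83).

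The 33 untested members were low or silent. Of these, 14 had at least 10 reads over the 4 libraries, 9 had 1 to 7 reads and none above 0.0409 FPKM, and 10 had 0 reads. A count of 0 allows up to 0.0175 to 0.101 FPKM for those 10 at 3 reads per library, a limit that covers counting error only. The silent genes were SLC1A6, SLC6A2, SLC6A3, SLC6A5, SLC6A18, SLC6A19, SLC7A13, SLC7A14, SLC36A2 and SLC38A8, several of them known from neurons, kidney or gut. Just inside the filter lay SLC43A1, and just outside it SLC6A17, a vesicular neutral amino acid carrier of neurons, at 0.327 and 0.386 FPKM in KO and 1.1 and 0.927 FPKM in WT.

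Among the 14 low members, both KO libraries lay below both WT libraries for 11 and above them for 1, beside 31.6% and 22.9% of all genes under the filter with at least 10 reads. The minimum of 10 reads pooled both groups, so these counts are a description only. On KO reads alone SLC1A3, SLC7A4, SLC38A4, SLC6A14, SLC6A4 and SLC1A7 would have missed it. On WT reads alone SLC38A11 and SLC38A5 would have missed it. The levels of the 14 are too low for the test on log2(FPKM + 1), so no p is given for them. SLC7A8 (LAT2), a light chain partner of SLC3A2, had 8 and 6 reads in KO and 57 and 48 in WT, 7.35-fold lower by mean FPKM. SLC6A13 had 4 and 7 reads in KO and 36 and 59 in WT, 8.5-fold lower. The groups did not overlap in either gene, and for SLC6A13 the gap between the groups in FPKM was smaller than the difference between the WT libraries.

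The glutamate carriers best known from astrocytes were also fewer in KO at these levels. SLC1A2 (EAAT2) had 41 and 16 reads in KO and 154 and 118 in WT, 4.71-fold lower by mean FPKM and 8.01-fold lower without KO replicate 1. SLC1A3 (EAAT1) had 0 reads in both KO libraries and 22 and 15 reads in WT, which puts KO at least 5.98-fold lower with 3 reads in each KO library as the limit. SLC7A4 also had 0 reads in KO and 9 and 5 in WT, at least 2.25-fold lower. SLC38A4 had 0 reads in KO and 6 and 4 in WT, at least 1.62-fold lower. The exception in direction was SLC38A11, with 27 and 20 reads in KO and 1 and 6 reads in WT. The groups overlapped for 2 genes, SLC7A9 and SLC38A5.

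**Figure D4:**
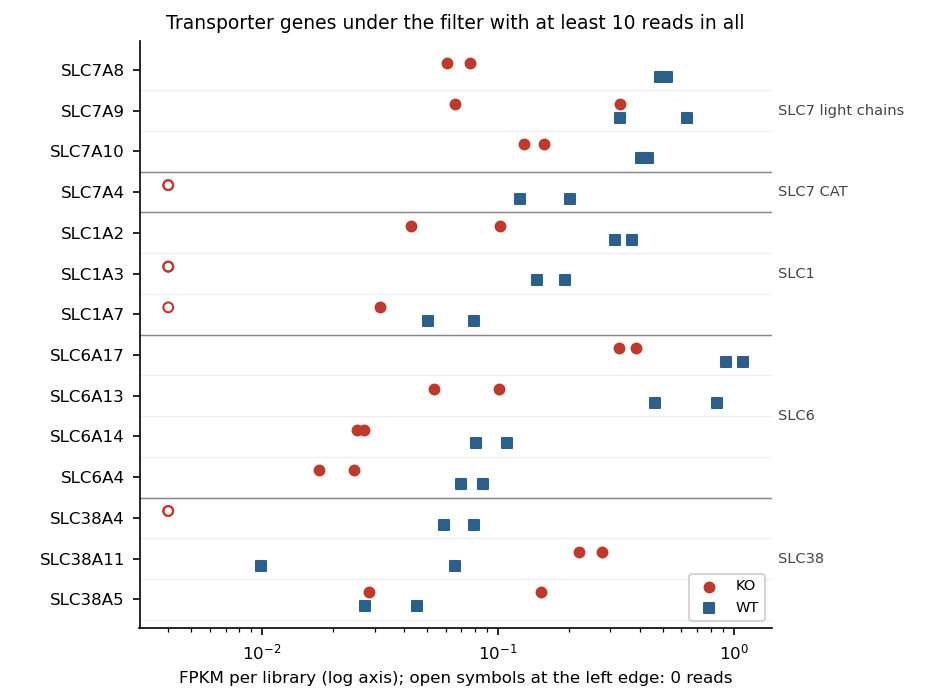
FPKM per library on a log axis for the 14 untested transporter genes with at least 10 reads in all, with KO libraries as red circles above WT libraries as blue squares and open symbols at the left edge for 0 reads. Both circles lie left of both squares for 11 genes, and right of them for SLC38A11.

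Transporters known as ATF4 targets (SLC7A11, SLC7A5, SLC3A2, SLC7A1, SLC7A3, SLC1A4, SLC1A5, SLC6A9 and SLC38A2) made up 7 of the 10 that fell. Of 9 listed, 8 were tested, and 7 fell and 0 rose by limma, beside 11.1% and 12.1% of all genes tested. The count higher was also 0 at an unadjusted p under 0.05. The exceptions were SLC7A11, which did not pass, and SLC7A3, with 2 reads in all. The median change of the 8 was -1.16 on the log2(FPKM + 1) scale, beside 0.03 over all genes tested, and the count of 7 was 3 without WT replicate 1 and 1 with no filter on low values. SLC6A12, SLC6A15 and SLC7A7 fell without being on that list. The list was drawn up with earlier results of these data known, so its counts are a description and not independent support.

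The amino acid response list held ATF4, the upstream kinase EIF2AK4 (GCN2), and enzymes and regulators known from the ATF4 response. It too was chosen with earlier results of these data known. Of 21 listed, 20 were tested, 13 fell and 1 rose, beside 11.1% and 12.1% of all genes tested, 6 did not pass, and the median change was -1.23. ATF3 was among those that fell and, at 0.664 and 0.604 FPKM in KO, passed the filter only because both WT libraries reached 1 FPKM. The 5 largest were CHAC1, which degrades glutathione, STC2, a secreted glycoprotein, SESN2, a leucine sensor, PSAT1, of serine synthesis, and VEGFA, an angiogenic factor. CHAC1 had 2.08 and 2.34 FPKM in KO, against 33.8 and 25.5 FPKM in WT. STC2 had 2.51 and 3.56 FPKM in KO and 20.1 and 22.7 FPKM in WT. SESN2 had 3.82 FPKM in both KO libraries and 18.5 and 15.07 FPKM in WT, while PSAT1 had 60.9 and 54.9 FPKM in KO and 218 and 183 FPKM in WT. All 5 had both KO libraries below both WT libraries and changes from -1.67 (VEGFA) to -3.24 (CHAC1) on the log2(FPKM + 1) scale.

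Some members outside those 5 were chosen after their values were seen. ATF4 itself had 70.6 and 89.3 FPKM in KO and 140.4 and 144.4 FPKM in WT (log2 -0.83, limma adjusted p = 0.0257), a call lost without KO replicate 1 (adjusted p = 0.0658) or either WT replicate (adjusted p = 0.135 each), over alternatives from 0.00423 to 0.135. With no filter on low values ATF4 lost the call as well (limma adjusted p = 0.0898). ATF4 activity is set largely at translation, which these values do not measure. The single gene that rose was ALDH18A1, of proline synthesis, at 47.8 and 40.7 FPKM in KO and 22.9 and 22.1 FPKM in WT (limma adjusted p = 0.0125, lost without WT replicate 1 at 0.0809 and WT replicate 2 at 0.0839, over alternatives from 0.00197 to 0.0839). With no filter on low values ALDH18A1 also lost the call (limma adjusted p = 0.0564). ASNS, asparagine synthetase, was under the filter at 0.5 and 0.507 FPKM in KO and 1.05 and 0.794 FPKM in WT.

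Genes that sense amino acids for mTORC1 mostly did not pass. SESN2, the leucine sensor that fell, was counted on the response list above and not on this one. Of 33 listed, 30 were tested, 2 rose and 2 fell, with a median change of 0.05. Each count is 6.67% of those tested, below the 12.1% and 11.1% of all genes that rose and fell, so the genes named next are single genes and not a result about the list. RRAGA, a GTPase that tethers mTORC1 to lysosomes, had 63.5 and 59.8 FPKM in KO and 26.5 and 26.3 FPKM in WT (limma adjusted p = 0.00574). SEC13, a coat protein that is also a subunit of the GATOR2 complex, rose as well, at 27.1 and 32.7 FPKM in KO and 17.9 and 19.8 FPKM in WT (limma adjusted p = 0.0383). The genes that fell were RPTOR, the raptor subunit of mTORC1, at 6.55 and 6.61 FPKM in KO and 11.2 and 10.6 FPKM in WT (limma adjusted p = 0.0208), and SESN1, at 2.06 and 1.58 FPKM in KO and 4.65 and 4.36 FPKM in WT (limma adjusted p = 0.0126). With no filter on low values SEC13, RPTOR and SESN1 lost the call (limma adjusted p = 0.09885, 0.0606 and 0.0672). SEC13, RPTOR and SESN1 each lost the call without either WT replicate (adjusted p = 0.0556 to 0.249), and SEC13 without KO replicate 2 as well (adjusted p = 0.0805); over all alternatives the 3 genes ranged from 0.00284 to 0.249.

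Carriers of amino acids outside the 7 families, mostly mitochondrial or vesicular, gave 12 tested genes of 21 in the table, with 2 higher and 0 lower by limma and a median change of 0.04. The 2 higher genes are 16.7% of those tested, near the 12.1% of all genes. At an unadjusted p under 0.05, 1 was lower. SFXN3, a sideroflexin of the mitochondrial membrane, had 12.6 and 13.8 FPKM in KO and 7.42 and 7.18 FPKM in WT (limma adjusted p = 0.0147). With no filter on low values SFXN3 lost the call (limma adjusted p = 0.0567). SLC25A13, the aspartate-glutamate carrier citrin, had 17.8 and 14.9 FPKM in KO and 11.3 and 9.72 FPKM in WT (limma adjusted p = 0.0475). Both lost the call without either WT replicate (adjusted p = 0.1105 to 0.284), and SLC25A13 also without KO replicate 1 (adjusted p = 0.114), after quantile normalization (0.0565), after scaling to total reads (0.062), on log2(FPKM + 0.1) (0.0505) and with no filter (0.117); over all alternatives these genes ranged from 0.0039 to 0.284.

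Of 18 tested genes of glutamine, cystine and arginine use, 6 fell (33.3%, beside 11.1% of all genes tested) and 1 rose (5.56%, beside 12.1%), with a median change of -0.15. This list was also chosen with earlier results of these data known. ASS1, which makes argininosuccinate in arginine synthesis, had 6.55 and 8.22 FPKM in KO and 40.6 and 37.4 FPKM in WT, 5.28-fold lower (log2 -2.26, limma adjusted p = 0.00312). ARG2, a mitochondrial arginase, had 0.85 and 0.808 FPKM in KO and 7.3 and 4.72 FPKM in WT (log2 -1.91, limma adjusted p = 0.0055). ARG2 passed the filter only because both WT libraries reached 1 FPKM, and its call was lost with no filter on low values (adjusted p = 0.054, over alternatives from 0.000627 to 0.054). ODC1, which makes putrescine from ornithine, had 16.6 and 17.7 FPKM in KO and 53.5 and 41.7 FPKM in WT (log2 -1.41, limma adjusted p = 0.00647). ASL, which follows ASS1 in arginine synthesis and was named after its values were seen, lay higher in both KO libraries, at 4.47 and 6.38 FPKM in KO and 2.92 and 4.18 FPKM in WT, and did not pass.

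BCAT1, the cytosolic branched-chain aminotransferase, had 2.11 and 1.41 FPKM in KO and 7.82 and 5.74 FPKM in WT (log2 -1.49, limma adjusted p = 0.00915). The single gene that rose was its mitochondrial counterpart BCAT2, named after its values were seen, at 14.02 and 13.7 FPKM in KO and 7.93 and 7.1 FPKM in WT (log2 0.80, limma adjusted p = 0.0137). GPT2, a mitochondrial alanine aminotransferase, had 5.84 and 5.74 FPKM in KO and 11.3 and 10.7 FPKM in WT (limma adjusted p = 0.0118). With no filter on low values BCAT2 and GPT2 lost the call (limma adjusted p = 0.0564 and 0.052). BCAT2 and GPT2 lost the call without either WT replicate (adjusted p = 0.077 to 0.117), over alternatives from 0.00293 to 0.117, and ODC1 and BCAT1 lost it with no filter on low values (adjusted p = 0.052 and 0.0631, over alternatives from 0.000964 and 0.000557 up to those values).

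**Figure D5:**
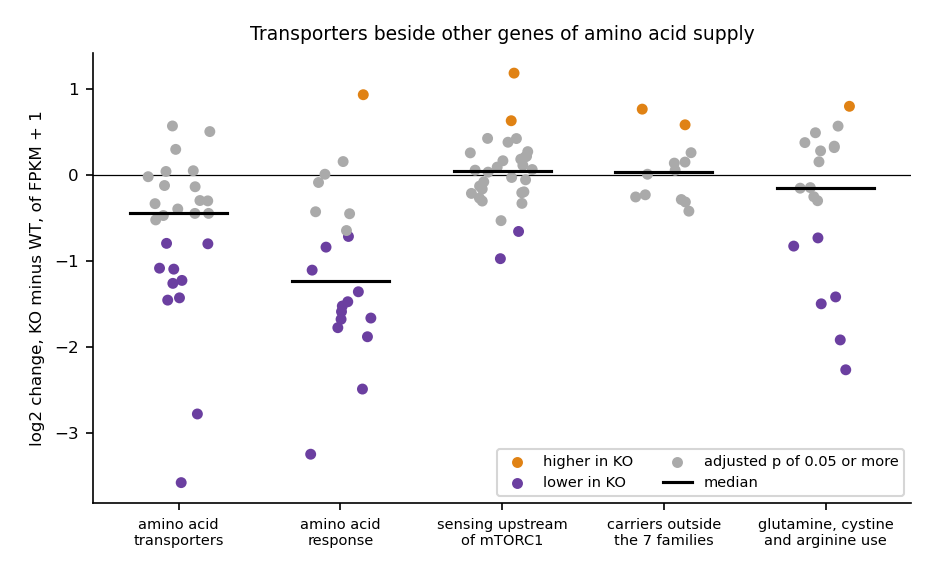
Log2 change of FPKM + 1, KO minus WT, for each tested gene of the transporters and of the 4 other lists, coloured by whether it passed the adjusted threshold, with the median of each list as a black bar. The medians are -0.44 for transporters, -1.23 for amino acid response genes, 0.05 for genes sensing amino acids upstream of mTORC1, 0.04 for carriers outside the 7 families and -0.15 for enzymes of glutamine, cystine and arginine use.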

How the data were processed

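RNA was sequenced from 4 libraries of cells labelled HFL1, 2 labelled KO and 2 labelled WT. Paired-end reads were aligned with HISAT2 2.0.5, per the labels' protocols, and the submitters' processing notes name the builds hg38 and mm10. The authors deposited FPKM values, 1 per gene and library. The counting tool, its strand setting and the scaling were not given in the sources used here. Identifiers and positions of all 58735 genes equalled GENCODE release 29 on GRCh38.

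Multiplying FPKM by gene length gave whole multiples of 1 step per library for 100% of values (tolerance 0.01), from which reads were recovered, 16173899 to 17715774 per library. Median-of-ratios factors were 1.0046 in each library, so the deposited values were already level between libraries by that measure. The mitochondrial share of reads was 9.34% and 9.71% in KO and 9.66% and 12.7% in WT.

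Genes with at least 1 FPKM in at least 2 libraries were tested on log2(FPKM + 1) with limma 3.58.1 in R 4.3.3 (trended prior, 2 residual degrees of freedom), unpaired, with Benjamini-Hochberg adjustment over all 14100 genes at a threshold of 0.05. This scale understates changes of low genes. Folds are ratios of mean FPKM. The alternatives were pseudocounts of 0.1 and 0.5, other filters and scalings, each library left out (the lone library of that group is then assumed to vary like the other group), and a replicate block. Fits with a library left out used the genes that passed the filter on all 4 libraries.

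Named were CALU, every tested transporter (full statistics for those past the threshold or with a group mean of at least 10 FPKM), untested ones by reads, and from each other list the 5 largest log2 changes that passed. Members and lists were chosen with earlier results of these data known.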

Additional observations from a re-analysis of the deposited data

How the results depend on the processing

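Directions of the 10 transporter calls held under all 11 alternatives (10 for SLC6A12 and SLC6A15), and 3 kept the call in all that tested them. SLC6A12 and SLC6A15 were left out by the filter of 1 FPKM in all 4 libraries. With no filter on low values the calls of SLC38A2, SLC7A5, SLC1A5, SLC3A2, SLC7A1, SLC1A4 and SLC7A7 were lost, at adjusted p of 0.0501 to 0.0884. A planned count-model test on recovered reads was run and then withdrawn, because count models were kept for deposited counts and these values are FPKM. It gave more calls than limma in both directions, for transporters and for all genes, and its values are not reported. For all genes 1711 were higher and 1572 lower in KO, against 183 and 193 with no filter, 2968 and 2577 with the replicate block, and 505 to 1321 and 537 to 1260 with a library left out. For transporters 0 were higher and 10 lower, against 3 lower with no filter, 2 higher with the replicate block (SLC38A6 and SLC36A4), and 0 higher and 5 to 10 lower with a library left out. ATF4-target transporters had 7 lower, against 1 with no filter and 3 to 7 with a library left out.

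Amino acid response genes had 1 higher and 13 lower, against 0 and 6 with no filter and 0 to 1 and 10 to 13 with a library left out. Sensing genes had 2 and 2, against 1 and 0 with no filter and 1 to 2 and 0 to 2 with a library left out. Other carriers had 2 and 0, against 0 higher with no filter, 1 higher with a pseudocount of 0.1, quantile normalization or scaling to total reads, 1 lower with the replicate block, and 0 to 2 higher with a library left out. Genes of glutamine, cystine and arginine use had 1 and 6, against 0 and 1 with no filter, 4 higher with the replicate block, and 0 to 1 and 4 to 6 with a library left out. The cause of these shifts was not tested.

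With a library left out, SLC6A16 ran from -0.0896 to 0.18 on the log2 scale (-0.0896 without KO replicate 1 and -0.0387 without WT replicate 2) and SLC1A1 from -0.23 to 0.20 (0.20 without KO replicate 2 and 0.0972 without WT replicate 1), so both changed sign, and neither was called. KO and WT share replicate numbers, but nothing says that the numbers pair samples, and there are only 2 pairs (correlation of deviations 0.411 across genes). With the replicate block, SLC7A11 (adjusted p = 0.0202), SLC38A1 (0.0283), SLC38A10 (0.0249), SLC38A9 (0.0479), SLC38A6 (0.0251) and SLC36A4 (0.0134) passed as well. Scalings moved the median of all genes by less than 0.1 on the log2 scale. Members of a few reads cannot show differences at this depth.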
